A study of Homo sapiens with 8 samples.

Results

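Binding of HA-tagged RUNX1 around 8 immediate early genes was examined in HEL, a human erythroleukemia cell line that expresses genes of both the erythroid and the megakaryocytic lineage. The genes were FOS, FOSL1, FOSL2, JUN, JUNB and JUND, which encode subunits of AP-1, ATF3, a stress-induced relative that pairs with Jun proteins, and EGR1, a zinc finger factor. They were chosen by name out of 20033 protein-coding genes, and the measured items are the peaks from 50 kb before to 50 kb after each gene on hg38. Peaks of different libraries that shared at least 1 bp were merged into regions, and 69 of the 33478 regions of the series lay in these windows. No region belonged to more than 1 window.

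The cells were HEL transduced with HA-tagged RUNX1-4D, HA-tagged RUNX1-4A, HA-tagged wild-type RUNX1 (WT) or an empty vector, with 2 biological replicates each, which makes 8 libraries. By the usual naming of such mutants, 4D carries aspartate in place of serine or threonine residues, as a mimic of phosphorylation, and 4A carries alanine there, which cannot be phosphorylated. All lines shared the HEL background, selection in 2 µg/ml puromycin and the anti-HA antibody. The labels name no stimulus such as serum or phorbol ester, and do not say whether a line was a clone. The 6 libraries with a deposited list are 4D, 4A and WT, with the empty vector line as the background of peak calling. The antibody reads only the transduced protein, so RUNX1 made by HEL cells from their own gene was not measured, and no transcript level is given by a peak list.

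AP-1 is a dimer of a Fos and a Jun protein, or of Jun with an ATF protein, held together by leucine zippers. FOS, JUN, JUNB, ATF3 and EGR1 are transcribed rapidly after a growth or stress signal, FOSL1 and FOSL2 rise later, and JUND is largely expressed without one. The rapid response runs mostly through serum response factor with ETS partners and through CREB-like factors at the promoters of these genes, and the proteins made then switch on slower genes. In megakaryocytic cells AP-1 is known to share many sites with RUNX1, GATA1 and ETS factors. FOSL1 and FOSL2 lack the strong activation domain of FOS, JUNB and JUND often restrain JUN, and EGR1 takes part in monocytic and megakaryocytic maturation.

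The promoter sequences were read first for RUNX, AP-1, CRE, ETS and GATA motifs. Sites of serum response factor were not searched, nor were other spellings of these motifs. A count of 0 therefore holds only for the letters given. The RefSeq promoter table of GRCh38.p14 held 8 start sites of 7 of the genes, 2 of them for ATF3, and none for FOSL1. In the 250 bases before these starts the RUNX motif TGTGGT (reverse complement ACCACA) was found in 0 of 8, against 9.36% of 22198 promoters of the same length, and the AP-1 motif TGANTCA was also found in 0 of 8, against 5.36%. The longer RUNX motif TGTGGTT, which holds the shorter one, was found in 0 of 8 as well, against 3.13%. The CRE core TGACGT (reverse complement ACGTCA), part of the site of CREB and ATF proteins, was found in 4 of 8, those of JUND, FOS, FOSL2 and EGR1, against 8% of all promoters. The ETS motif CCGGAAG was found in 0 of 8, against 10.7%, and the GATA motif AGATAA only in that of JUN, against 7.09%. Each motif was searched on both strands. A match describes letters and shows no binding.

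The 4 promoters with a CRE core are shown because they differ widely in calls, with a peak on the promoter window (these bases and the 50 after them) in 6 libraries at JUND, 5 at FOS, 3 at FOSL2 and 1 at EGR1. The bases lie at chr19:18281623-18281872 on the minus strand (JUND), chr14:75278578-75278827 on the plus strand (FOS), chr2:28392608-28392857 on the plus strand (FOSL2) and chr5:138465229-138465478 on the plus strand (EGR1). Each run ends at the base before the start site, is written 5′ to 3′, and has the CRE cores in capitals.
JUND: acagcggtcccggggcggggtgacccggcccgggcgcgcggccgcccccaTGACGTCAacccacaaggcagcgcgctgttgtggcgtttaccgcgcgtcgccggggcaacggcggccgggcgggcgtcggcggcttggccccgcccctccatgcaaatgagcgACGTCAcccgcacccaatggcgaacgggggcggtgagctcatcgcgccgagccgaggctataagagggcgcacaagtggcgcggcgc
FOS: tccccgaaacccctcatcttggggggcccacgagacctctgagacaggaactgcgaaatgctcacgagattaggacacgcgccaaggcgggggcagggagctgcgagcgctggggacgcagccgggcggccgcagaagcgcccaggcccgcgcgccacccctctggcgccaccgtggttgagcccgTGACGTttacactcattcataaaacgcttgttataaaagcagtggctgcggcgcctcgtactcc
FOSL2: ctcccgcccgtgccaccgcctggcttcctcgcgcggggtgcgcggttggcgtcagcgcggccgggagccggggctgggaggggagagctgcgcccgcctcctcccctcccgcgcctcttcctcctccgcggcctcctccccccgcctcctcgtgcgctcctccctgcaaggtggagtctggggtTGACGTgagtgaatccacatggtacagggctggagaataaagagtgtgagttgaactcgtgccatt
EGR1: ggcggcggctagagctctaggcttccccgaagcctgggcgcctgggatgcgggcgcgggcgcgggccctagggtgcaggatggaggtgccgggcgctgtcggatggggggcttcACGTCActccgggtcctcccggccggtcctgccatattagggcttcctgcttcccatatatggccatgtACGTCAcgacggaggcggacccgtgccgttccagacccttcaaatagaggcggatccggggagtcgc
JUND held 3 matches, of which a pair overlaps as a full palindrome 200 to 193 bases before the start. The match began 64 bases before the start in FOS and 66 bases before it in FOSL2. EGR1 held 2 matches on the minus strand, the nearer of which spans 67 to 62 bases before the start. G and C made up 74.8% of these bases in JUND, 64.8% in FOS, 69.6% in FOSL2 and 68.4% in EGR1, against a median of 62% over all promoters.

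The windows differed in how many of their regions were called in every library. Those of JUND, FOSL1 and FOSL2 held most of the regions called in every library, JUNB held 1, and FOS, JUN, ATF3 and EGR1 held none. In all, 14 of the 69 regions (20.3%) were called in all 6 libraries, 5 each in the windows of JUND and FOSL1, 3 at FOSL2 and 1 at JUNB. Over the series 9.84% of regions were called in all 6 libraries. Regions called in a single library numbered 22 (31.9%), against 34.5% over the series. In replicate 2 lists only, 43 of the 69 were called, against 24304 of 33478 (72.6%) over the series. None of the 69 was called in replicate 1 lists alone, and over the series 465 of 33478 were, so such regions were rare throughout.

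**Figure D1:**
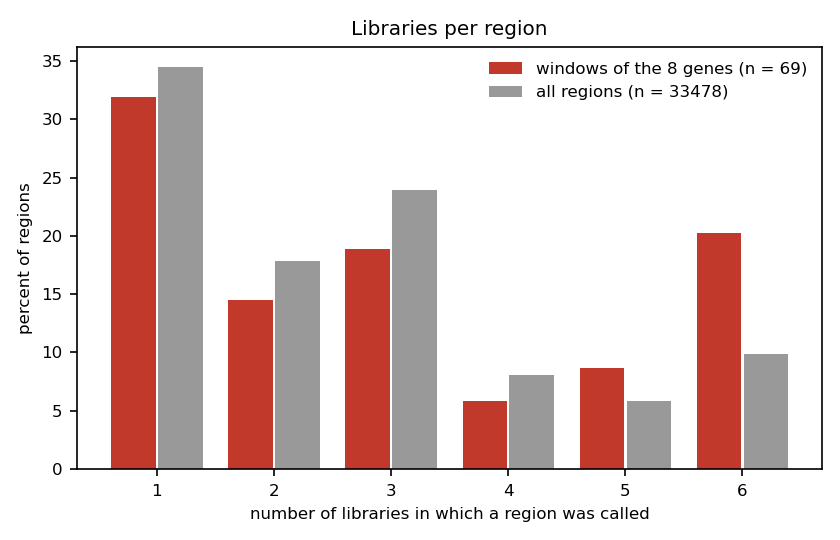
The bars give the percent of regions (vertical axis) called in 1 to 6 libraries (horizontal axis), for the 69 regions of the 8 windows and for all 33478 regions. Regions called in all 6 libraries make up 20.3% in the windows and 9.84% over the series.

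Replicate number moves with these counts. Replicate 1 lists held 5358 (4D), 6266 (4A) and 6764 (WT) peaks, and replicate 2 lists 21122, 24251 and 25911, on chromosomes 1 to 22, X and Y. Read depth is unknown here, so a region missing from a list was not called at that library's depth. As a check that peaks lie near blood genes, GATA1, TAL1 and GFI1B each had a region called in all 6 libraries within 10 kb, against 17.1% of all protein-coding genes. These regions lay outside the genes, by 6.28 kb (GATA1), 2.43 kb (TAL1) and 9.33 kb (GFI1B). ALB, MYOD1 and INS had no region called in both libraries of any line within 50 kb. Such a region lay near 39.2% (4D), 42.7% (4A) and 46.9% (WT) of all genes. The identity of HEL itself cannot be checked from binding data.

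Every gene of the 8 had at least 1 peak within 50 kb in each replicate 2 list, where this held for 72.4% (4D), 75.7% (4A) and 75.9% (WT) of all protein-coding genes. In the replicate 1 lists 5 had a peak in 4D (40.3% of all genes), 7 in 4A (43.9%) and 5 in WT (47.8%). The set of a line was taken as those regions that both libraries called. With 4D, 5 of the 8 genes had such a region within 50 kb (FOS, FOSL1, FOSL2, JUNB and JUND), against 39.2% of all protein-coding genes. With 4A there were 7, all but ATF3, against 42.7% of all genes. With WT there were 5 (FOSL1, FOSL2, JUN, JUNB and JUND), against 46.9%. The higher count with 4A did not hold under each setting. With a minimum −log10 q (the significance of a peak) of 5, it was 4 for 4D, 5 for 4A and 5 for WT. With all lists at one length it was again 4, 5 and 5. The shares of all genes were not computed for these settings. The median number of set regions per window was 1.5 in each line, against 0 over all genes. Within 10 kb of the gene the counts were 5 for 4D (23% of all genes), 5 for 4A (25.6%) and 3 for WT (29.2%). FOSL2, JUNB and JUND were counted in each line. FOS was counted in 4D and 4A, and had no peak in WT replicate 1. FOSL1 was counted in 4D alone, through a region at the FIBP promoter with −log10 q of 3.17 and 1.91. EGR1 was counted in 4A alone, through a region with −log10 q of 2.64 and 4.05. WT replicate 2 also called these regions at FOSL1 (9.68) and EGR1 (8.96). A region called in all 6 libraries lay within 50 kb of 4 of the 8, against 30.5% of all genes, and within 10 kb of 3, against 17.1%.

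Genes with more neighbours more often had a set region, and the 8 windows differed in their number of genes. The FOSL1 window held 10 other protein-coding genes, JUNB 8, JUND 4, EGR1 3, ATF3 1, and FOS, FOSL2 and JUN none, against a median of 2 over all genes. Of the 6253 genes with at most 1 such neighbour, 25% had a set region in 4D, 27.9% in 4A and 30.1% in WT. Of the 3894 genes with 5 or more, 60.3% had one in 4D, 64.2% in 4A and 69.2% in WT. FOSL2 thus held 3 (4D), 5 (4A) and 5 (WT) set regions with no other protein-coding gene in its window. Of the 69 regions, 40 had the listed gene as the nearest protein-coding gene by gene end and 29 another gene; among the 14 regions called in all 6 libraries the counts were 5 and 9. The part of neighbouring genes in these regions was not tested.

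**Figure D2:**
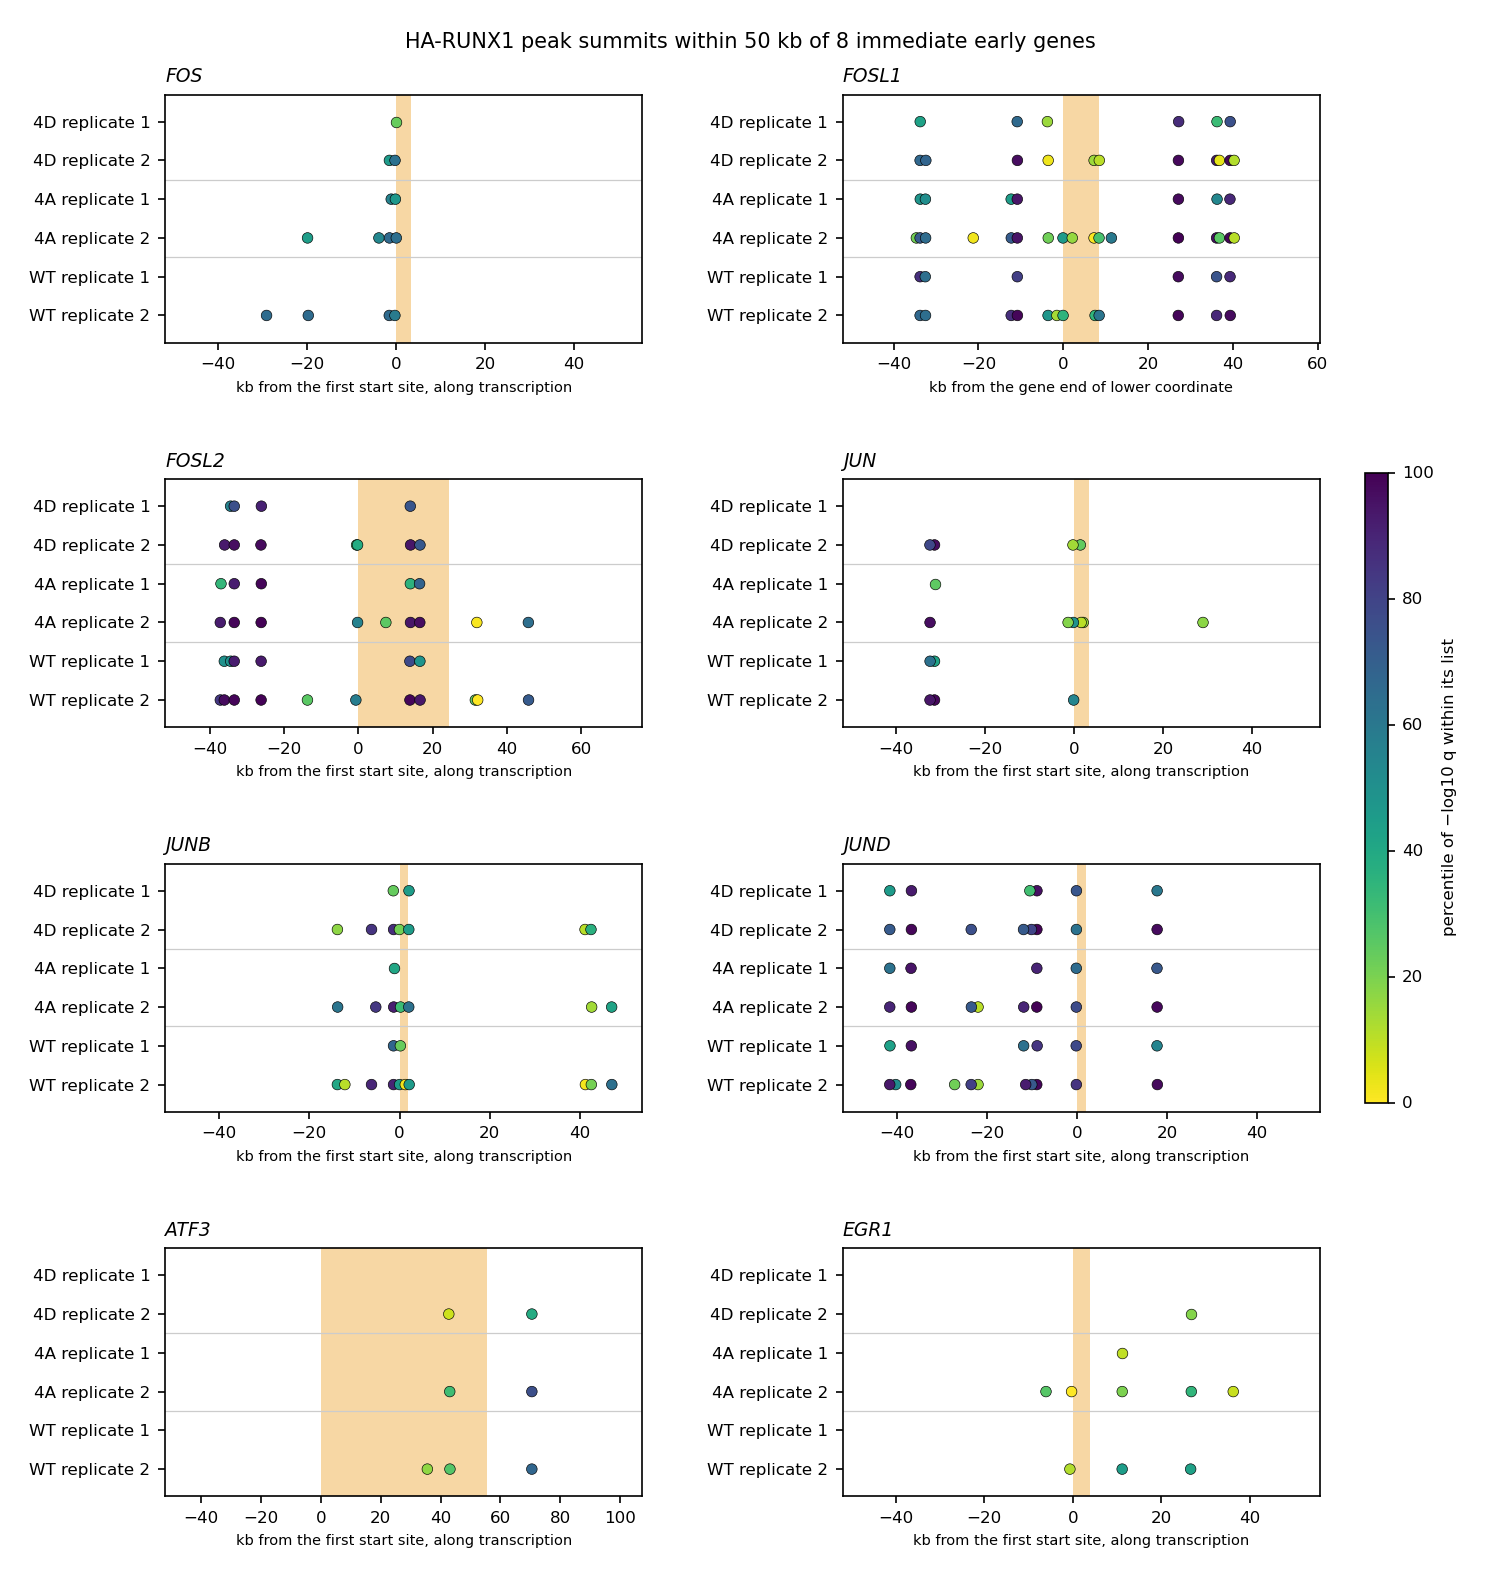
Each panel shows the window of 1 gene, with peak summits of the 6 lists as points at their distance in kb from the start site (horizontal axis; for FOSL1 from the gene end of lower coordinate), 1 row per library, the gene in orange, and the colour giving the percentile of −log10 q within that library's list. JUND, FOSL1 and FOSL2 show columns of points through all 6 rows, while ATF3 has points in the replicate 2 rows only and EGR1 has 1 replicate 1 point, in 4A.

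The Jun genes are taken in turn, since Jun proteins are the obligate partners of most AP-1 dimers. JUND (gene 3727, chromosome 19, 18279694 to 18281622, minus strand) was the gene in the list with a peak on its own start site in every library. That region (18281425 to 18282174) had its strongest summit 0.149 kb upstream of the start. The authors' −log10 q measures the significance of a peak against background, and not its height. Here it was 12.9 and 14.4 in the 4D replicates 1 and 2, 12.4 and 23.6 in 4A, and 21.3 and 33.8 in WT. From replicate 1 to replicate 2 it rose in each line, while the fold enrichment fell in 4D and 4A and rose slightly in WT. Values of −log10 q were therefore used only to describe and rank peaks within a list. Promoter windows, here from 250 bases before to 50 after a start, were touched by peaks in all 6 libraries at 7.86% of 15842 protein-coding genes.

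Farther upstream JUND had stronger regions. The region from 18290068 to 18290872, 8.93 kb upstream of the start in sequence outside any protein-coding gene, had −log10 q of 31.5 and 124 in 4D, 28.3 and 147 in 4A, and 27 and 119 in WT, with fold enrichments between 14.2 and 25.3. It was the strongest of all 69 regions in both 4D lists, at rank 242 of 5358 in replicate 1 and 206 of 21122 in replicate 2. Directly beside it, the region from 18291163 to 18293569, the widest of the 69 at 2407 bp, was called in both 4D and both WT libraries and in 4A replicate 2.

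The other regions of the JUND window called in all 6 libraries lay at neighbours. By mean percentile the leading region (18318004 to 18319042) lay inside LSM4, a subunit of the spliceosomal and decay LSM rings, 36.9 kb upstream of JUND, with −log10 q of 26 and 100 in 4D, 37.2 and 112 in 4A, and 48.3 and 113 in WT. The region from 18322552 to 18323383 touched the LSM4 promoter, and that from 18263190 to 18264918 lay inside IQCN, 17.8 kb downstream of the JUND start. Within the window, then, 2 regions of the 5 have JUND as the nearest gene.

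JUNB (gene 3726, chromosome 19, 12791486 to 12793315, plus strand) lay within reach of 10 regions, of which 1 was called in every library. This region (12789750 to 12790532) lay 1.29 kb upstream of the start and inside HOOK2, a gene for a microtubule adaptor that overlaps JUNB. Its −log10 q was 4.17 and 36 in 4D, 6.81 and 50.9 in 4A, and 15.9 and 45.9 in WT. Over the start (12791328 to 12791865) lay a region called in all 3 replicate 2 lists and in WT replicate 1, although the 4A replicate 2 peak in it did not touch the promoter window. It had −log10 q of 4.51 in 4D, 5.87 in 4A, and 5.66 and 8.97 in WT. Just past the 3′ end, 0.099 kb outside the gene, a region (12793414 to 12793960) was called in both 4D libraries (−log10 q of 6.93 and 9.03), in 4A replicate 2 (14.7) and in WT replicate 2 (9.11). A wide region inside HOOK2, 6.21 kb upstream (12784670 to 12786661), reached 33 in 4D, 31.9 in 4A and 42.8 in WT in the replicate 2 lists and was not called in any replicate 1 list.

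JUN (gene 3725, chromosome 1, 58780791 to 58784047, minus strand), the founding member of the family, had its strongest binding far from the gene. The region from 58815154 to 58816878 lay 31.4 kb upstream of the start with no nearer protein-coding gene. It was not called in 4D replicate 1 and had −log10 q of 76.7 in 4D replicate 2, 4.93 and 78.1 in 4A, and 14.5 and 109 in WT. The start of JUN lay in a region (58783469 to 58784613) called in the 3 replicate 2 lists alone, with −log10 q of 3.47 in 4D, 9.78 in 4A and 11.7 in WT. The other 4 regions of the window were called in 1 or 2 libraries.

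The Fos genes differed in where peaks lay. FOS (gene 2353, chromosome 14, 75278828 to 75282230, plus strand) had no other protein-coding gene in its window and 5 regions, all upstream or at the start. The region at the start (75278269 to 75279113) was called in 5 of 6 libraries, with −log10 q of 4.13 and 14.6 in 4D, 8.18 and 14.9 in 4A, and 13.2 in WT replicate 2. WT replicate 1 had no peak anywhere in the FOS window. A second region 1.53 kb upstream (75277093 to 75277900) was called in 4D replicate 2 (−log10 q of 9.08), in both 4A libraries (9.91 and 16) and in WT replicate 2 (16.2). FOS therefore had set regions in 4D (1) and 4A (2) and none in WT, which rests on the single WT replicate 1 list.

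FOSL2 (gene 2355, chromosome 2, 28392858 to 28417317, plus strand) had 2 distal upstream regions called in every library. The region from 28366075 to 28367293, 26.1 kb upstream, had −log10 q of 23.8 and 88 in 4D, 65 and 152 in 4A, and 40.1 and 146 in WT. Of the 69 regions it was the strongest in both 4A lists, at rank 80 of 6266 and 154 of 24251, and in the WT replicate 2 list, at rank 169 of 25911. A further region 33.4 kb upstream (28358139 to 28360150) was also called in every library, with −log10 q of 14 and 75.6 in 4D, 30.6 and 116 in 4A, and 37.9 and 118 in WT. By gene end its nearest gene was BABAM2, at 20.6 kb, a subunit of a DNA repair complex.

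Inside FOSL2, 13.9 kb past the start, a region (28406387 to 28407282) was called in all 6 libraries, with −log10 q of 13.1 and 59.7 in 4D, 6.3 and 62.8 in 4A, and 21 and 115 in WT. A neighbouring region inside the gene (28409123 to 28409673) was called in all libraries but 4D replicate 1. The FOSL2 start lay in a region (28392093 to 28393011) called in the replicate 2 lists alone, with −log10 q of 7.57 in 4D, 11.7 in 4A and 13.1 in WT. Exons and introns were not told apart here.

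FOSL1 (gene 8061, chromosome 11, 65892049 to 65900545) had the most regions, 18, in the window with the most genes, and 0 of the 5 called in every library had FOSL1 as the nearest gene. The leading one by mean percentile (65918629 to 65920103) touched the promoters of C11orf68 and DRAP1, a transcriptional corepressor, 18.1 kb outside FOSL1. Its −log10 q was 20.1 and 96.1 in 4D, 51 and 152 in 4A, and 59 and 113 in WT, and it led the 69 regions in WT replicate 1, at rank 189 of 6764. Another lay inside CTSW, a protease of cytotoxic lymphocytes (65880732 to 65881614), with −log10 q of 10.7 and 78.5 in 4D, 36 and 65.7 in 4A, and 23.6 and 111 in WT. Another touched the promoter of CFL1, the actin-severing protein cofilin (65857814 to 65858619), and the last pair lay past DRAP1, the farther of them (65931109 to 65931702) with −log10 q of 13.7 and 117 in 4D, 26.9 and 122 in 4A, and 31.4 and 85.8 in WT.

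At FOSL1 itself no region was called in a replicate 1 list. The strand of FOSL1 was not given in the tables used, so its ends are given by coordinate. At the upper end a region (65900383 to 65900738) was called in the replicate 2 lists alone, with −log10 q of 2.95 in 4D, 5.43 in 4A and 14.4 in WT. At the lower end a region (65891755 to 65892049) was called in 4A replicate 2 and WT replicate 2. The region of the 4D set nearest to FOSL1 (65888085 to 65888662), 3.39 kb outside it, touched the promoter of FIBP, which encodes a protein that binds a fibroblast growth factor. It had −log10 q of 3.17 and 1.91 in 4D, and was called in replicate 2 only of 4A (4.3) and of WT (9.68).

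ATF3 and EGR1 had the lowest numbers of peaks over the 6 libraries. ATF3 (gene 467, chromosome 1, 212565407 to 212620777, plus strand) had 3 regions, none in a replicate 1 list and none at either of its 2 starts. The strongest (212635681 to 212636768) lay 14.9 kb past the gene, with −log10 q of 7.67 in 4D, 22.8 in 4A and 17.3 in WT in the replicate 2 lists. By gene end its nearest gene was GARIN4, at 9.13 kb. Inside ATF3 a region 6.53 kb before the inner start (212608131 to 212608688) had −log10 q of 2.6 in 4D, 5.76 in 4A and 5.48 in WT.

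EGR1 (gene 1958, chromosome 5, 138465479 to 138469303, plus strand) had 6 regions, none overlapping the gene. Its promoter window carried a peak in 4A replicate 2 alone (138465102 to 138465376), with a −log10 q of 1.33, close to the lowest value in that list, 1.3. A region 7.06 kb past the gene (138476363 to 138476763) was called in both 4A libraries (−log10 q of 2.64 and 4.05) and in WT replicate 2 (8.96), and not in 4D. By mean percentile the leading region (138491955 to 138492344), 26.6 kb past the start, was called in the replicate 2 lists alone, with −log10 q of 4.16 in 4D, 6.4 in 4A and 8.56 in WT. Its nearest gene by gene end was ETF1, at 14 kb, against 22.8 kb for EGR1.

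Within each list the regions of the windows were spread over weak and strong peaks. The strongest peak of a region stood above the percentile 90 of its list for 3 of 18 and 12 of 39 regions in the 4D replicates, 6 of 22 and 14 of 58 in 4A, and 4 of 20 and 15 of 54 in WT. The median percentile was 62.9 and 66.5 in 4D, 59 and 57.6 in 4A, and 75.8 and 63.9 in WT. Taking the strongest of several peaks in a region raises these values above those of single peaks. The same counts and medians were not computed over all regions of the series, so whether these are unusual cannot be told.

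**Figure D3:**
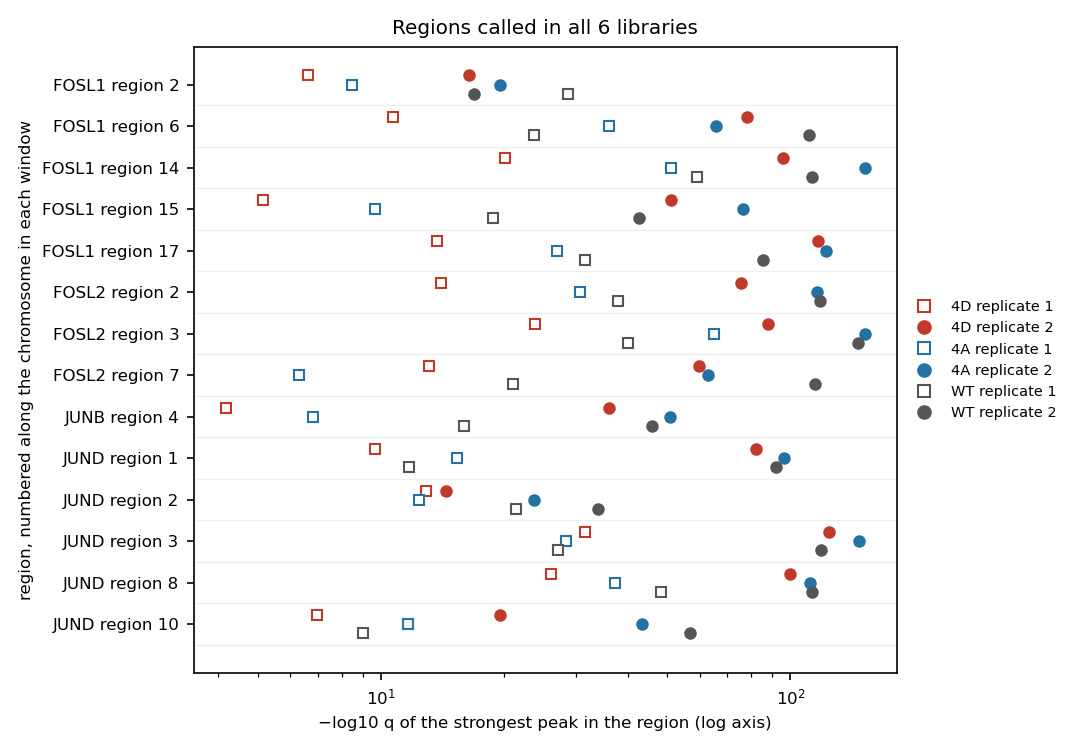
Each row is 1 of the 14 regions called in all 6 libraries, numbered along the chromosome within the window of its gene, and the horizontal log axis gives the −log10 q of its strongest peak. Open squares are replicate 1 and filled circles replicate 2 of 4D (red), 4A (blue) and WT (grey). JUND region 3 is the strongest in both 4D lists and FOSL2 region 3 in both 4A lists.

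Taken by start sites, a promoter window was touched by peaks of both 4D libraries at 2 of 7 genes (FOS and JUND), against 10.7% of protein-coding genes. For 4A it was also 2 of 7 (FOS and JUND), against 11.3%, and for WT 2 of 7 (JUNB and JUND), against 14.7%. Taking replicate 2 by itself, a start was touched at 5 of 7 for 4D (31.5% of all genes), 5 for 4A (36.4%) and 5 for WT (36.6%). Taking replicate 1 by itself, it was 2 of 7 in each line, against 10.9%, 11.6% and 15.1%. The touched starts in the replicate 2 lists of all 3 lines were those of FOS, FOSL2, JUN and JUND. To these the 4D and WT lists added JUNB, and the 4A list added EGR1. Of the 69 regions 17.4% touched a promoter window of a protein-coding gene, against 19.1% of all regions.

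The comparison of the lines asks whether the change of phosphorylation sites moved binding at these genes. For 4D against WT, none of the 57 regions of the windows found in either line was called in both 4D and neither WT library, against 0.131% of the 28971 regions called in either line, and none in both WT and neither 4D library, against 0.545%. For 4A against WT the counts were likewise 0 and 0 of 69, against 0.222% (4A) and 0.29% (WT) of 31017 regions. For 4D against 4A, none of 59 was called with 4D and not 4A, against 0.364% of 28817 regions, and 2 were called with 4A and not 4D, against 0.777%. Those 2 were the region past EGR1 and a region beside CTSW in the FOSL1 window (65879591 to 65880077), with −log10 q of 7.89 and 19.2 in 4A and 36.9 in WT replicate 2. The stronger region inside CTSW was called in both 4D lists. No test was made of single regions. The shares over all regions given above hold for calls in both libraries of a line. For 1 library a line, as in the next counts, they were not computed, so whether those counts are unusual cannot be told. With 1 library standing for each line the counts are far higher: in replicate 2 and replicate 1 taken alone they were 3 and 4 for 4D and not WT, 18 and 7 for WT and not 4D, 15 and 5 for 4A and not WT, 11 and 4 for WT and not 4A, 1 and 3 for 4D and not 4A, and 20 and 7 for 4A and not 4D. The count of 2 for 4A and not 4D became 1 with a −log10 q minimum of 5 and with windows of 10 kb. It also became 1 with either way of making the lists equally long, and the region was not the same in each. With summit windows of 100 bp the count became 3.

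The number of peaks in the 8 windows was 19 and 42 in the 4D libraries, 22 and 58 in 4A, and 22 and 57 in WT. These are 0.355% and 0.199% of the 4D lists, 0.351% and 0.239% of the 4A lists, and 0.325% and 0.22% of the WT lists. Wilson 95% intervals, which cover counting error only, ran from 0.227 to 0.553% in 4D replicate 1 and from 0.215 to 0.492% in WT replicate 1. The mean number was 30.5 ± 16.3 in 4D, 40 ± 25.5 in 4A and 39.5 ± 24.7 in WT (SD, n = 2), so that the lines differed by less than their replicates. These SDs hold the gap between replicate 1 and replicate 2, which went the same way in every line. Within each replicate number 4D had fewer peaks in the windows than WT and than 4A, and its list was also the shortest. The differences were −9 for 4D against WT, 0.5 for 4A against WT and −9.5 for 4D against 4A (two-sided exact permutation p = 0.667, 1 and 0.667; adjusted over the 3 pairs, p = 1 for each). For 4A against WT the difference turned to −5 with a −log10 q minimum of 5 and to −3 with all lists at one length. The smallest p that 2 against 2 libraries allow is 0.333. Within replicate 1 the difference was −3 for 4D against WT and within replicate 2 it was −15. For the share of the list in the windows the differences were 0.00411 percentage points for 4D against WT, 0.0225 for 4A against WT and −0.0184 for 4D against 4A (exact permutation p = 1, 0.667 and 1). That share was higher with 4D than with WT in 1 of 2 replicate numbers, with 4A than with WT in 2 of 2, and with 4D than with 4A in 1 of 2. With the replicate number as a block the p was 1, 0.5 and 1, and 0.5 is the smallest the block allows.

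**Figure D4:**
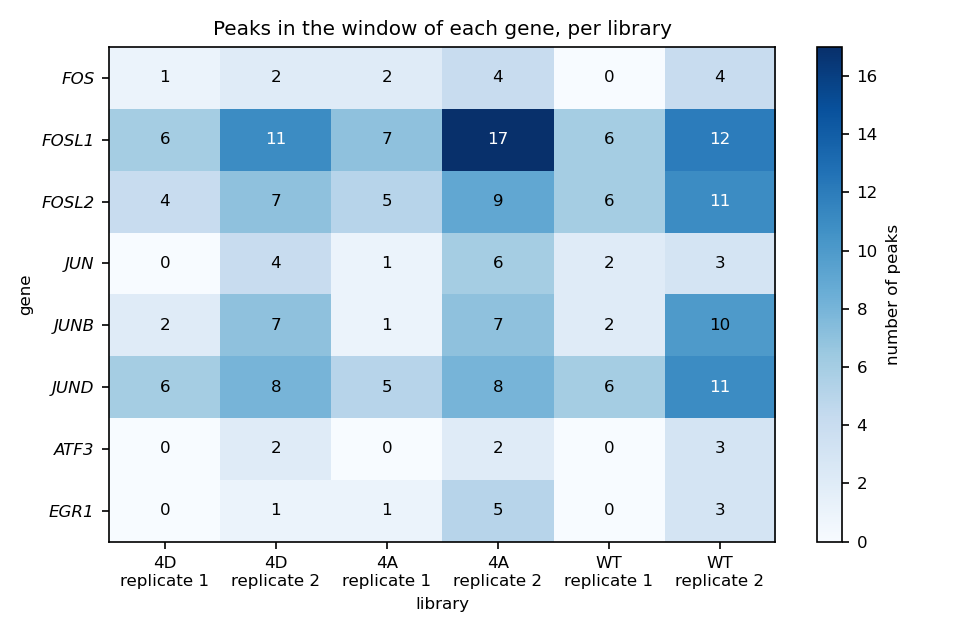
The cells give the number of peaks in the window of each gene (rows) in each library (columns), with darker blue for more peaks. FOSL1 holds most in both 4A libraries (7 and 17), and ATF3 holds none in any replicate 1 library.

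Other genes of the response were read from lists of AP-1 relatives, further immediate early genes and their regulators, to be set against the shares of all genes given above (39.2% in 4D, 42.7% in 4A and 46.9% in WT within 50 kb, and 17.1% for a region called in all 6 libraries within 10 kb). Of 10 other AP-1 family genes, 7 had a set region within 50 kb in 4D, 8 in 4A and 6 in WT, and 1 had a region in all 6 libraries within 10 kb. That was ATF7, a partner of Jun proteins, with fold enrichments between 5.81 and 14.5 in a region 6.23 kb outside the gene. Nearer genes were not looked for around the regions of these lists. Of 14 other immediate early genes, 9 had a set region within 50 kb in 4D, 9 in 4A and 10 in WT, and 5 had a region in all 6 libraries within 10 kb, against 17.1% of all genes. The NR4A2 region (chromosome 2, 156333841 to 156335061) lay 1.12 kb outside that nuclear receptor gene. Its −log10 q was 22.2 and 96 in 4D, 42.6 and 89.2 in 4A, and 42.7 and 88 in WT. The others were IER2, a short-lived nuclear protein, EGR3, the relative of EGR1, NR4A3, and BTG2, an antiproliferative factor with 2 such regions. EGR2, EGR4, KLF6 and CCN1 had no set region in any line within 50 kb.

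Of the 7 regulators, 5 had a set region within 50 kb in 4D, 5 in 4A and 6 in WT, and 5 had a region in all 6 libraries within 10 kb, against 17.1% of all genes. SRF, the serum response factor, had such a region overlapping its gene. The −log10 q there was 21.3 and 23 in 4D, 13.4 and 23.5 in 4A, and 28 and 24.5 in WT. ELK1, its ETS partner, had 3, of which 2 overlap the gene and 1 lay 8.22 kb outside it, with fold enrichments up to 23.5. ELK4 had 1. NAB2, a corepressor of EGR proteins, had 2, of which 1 lay 9.94 kb outside the gene. CREB1 had 1 overlapping the gene, with fold enrichments between 5.75 and 17.6. Of the 7, NAB1 had no set region in any line.

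Likeness to the leading gene was measured on the percentile of the strongest peak within 50 kb in each of the 6 lists. JUND led, with percentiles of 95.5 and 99.02 in 4D, 94.61 and 99.27 in 4A, and 95.51 and 98.78 in WT. In 4A replicate 1 and WT replicate 1 these belong to the region inside LSM4, 36.9 kb upstream of JUND. In the other lists they belong to the region 8.93 kb upstream, which had 90.2 in 4A replicate 1 and 84.6 in WT replicate 1. The mean over the lists was 97.1 for JUND and 96.5 for both FOSL1 and FOSL2. The 3 genes nearest to it, at a mean absolute difference of 0.438 points, were CCND2, a G1 cyclin, FGF23 and TIGAR, neighbours on chromosome 12 that share their strongest peaks. Within 1 point of JUND lay 42 of the 20033 genes.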

How the data were processed

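CUT&RUN with an anti-HA antibody was carried out on 500000 cells per library, permeabilized in 0.01% digitonin and amplified for 12 PCR cycles, per the labels' protocols. Per the submitters' processing notes, the build was hg38, and the tools named were MACS2 2.2.7.1, Bowtie2 2.4.2, cutadapt 3.4, deepTools 3.5.1 and Picard 2.25.6. Read filters and pooling of the empty vector background are not given in the sources used here. Each of the 6 deposited lists belongs to 1 library. For each peak the authors' deposited values are the fold enrichment over background (a linear ratio), a p-value and a q-value, each as its −log10, a score that is 10 times the −log10 q rounded down, and the summit's position. The lowest −log10 q of a list was 1.3 to 1.41.

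From these lists, with Python 3.11.15, numpy 2.4.6 and scipy 1.17.1, peaks of the autosomes and of X and Y were merged into regions (at least 1 bp shared), and a region belonged to a window when it touched it. In a region the strongest peak of a library gave its values, which were used only to describe and rank peaks within a list. Genes came from the RefSeq table of GRCh38.p14, the assembly of hg38, and starts from its promoter table (15842 protein-coding genes). Described regions were those called in all 6 libraries, the leading region by mean percentile of each window, that at the start within 5 kb, and those called with 1 line and not another. The code was tested on simulated lists. The genes and lists were chosen with earlier results of these data known. The replicates share numbers, which the labels tie to no shared day or batch. Alternatives were a −log10 q of at least 5, windows of 10 kb, equal list lengths, summit windows of 100 bp to either side, each replicate alone, the nearest gene end and the replicate number as a block.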

Additional observations from a re-analysis of the deposited data

How the results depend on the processing

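Of 94 alternative values for 13 results, 68 neither changed sign nor, where the result is a count, moved by more than 1.5 times. For 4A minus WT in number of peaks, 2 of these 68 were 0 (equal lengths within each replicate number, and replicate 2 left out). With replicate 1 left out or replicate 2 left out, genes with a set region numbered 8 and 5 (4D), 8 and 7 (4A) and 8 and 5 (WT), and regions called in all libraries left 35 and 14. Regions found with a line and not another then numbered 3 and 4 (4D not WT), 18 and 7 (WT not 4D), 15 and 5 (4A not WT), 11 and 4 (WT not 4A), 1 and 3 (4D not 4A) and 20 and 7 (4A not 4D), since a single library then stands for a line. The same counts over all regions of the series were not made for single libraries. With either replicate left out, the differences in number of peaks ran from −15 to −3 (4D minus WT), from 0 to 1 (4A minus WT) and from −16 to −3 (4D minus 4A). With windows of 10 kb, 3 genes had a WT set region and 4 regions were called in all 6 libraries. For regions found with 4A and not 4D the count was 1 with windows of 10 kb, with a −log10 q minimum of 5, with equal lengths within each replicate number and with all lists at one length. The region was that beside CTSW in 2 of these settings, that past EGR1 with windows of 10 kb, and another, inside FOSL2, with all lists at one length. With summit windows of 100 bp the count was 3, through a further region upstream of FOSL2. For WT and not 4D the count was 1 with a −log10 q minimum of 5 and with all lists at one length, and for WT and not 4A it was 1 with summit windows. The difference of 4A minus WT in number of peaks turned to −5 with a −log10 q of at least 5 and to −3 with all lists at one length. With the replicate number as a block, the exact permutation p was 0.5 for 4D minus WT (−9), 1 for 4A minus WT (0.5) and 0.5 for 4D minus 4A (−9.5), and 0.5 is the smallest this allows. The causes were not tested. Replicate 1 lists limit every set, and read depth is unknown.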
